A study of Mus musculus with 24 samples.

Results

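The gene expression of 2 healthy mouse organs, WT cerebellum and WT liver, was compared across all genes. The libraries were assigned to the organs by their labels: the 4 WT cerebellum and the 4 WT liver libraries, 8 of the 24 libraries of the series. Genes entered the comparison when they reached at least 1 CPM in at least 4 of the 8 libraries, which kept 16478 of the 55450 genes in the table. CPM is the count of a gene per 1000000 counts of its library, after the library size was adjusted by the trimmed mean of M values (TMM). The mice, of either sex and aged 6 to 12 weeks, came from a Thumpd1 line made in C57BL/6N zygotes and backcrossed to C57/BL6. Their Thumpd1 alleles were intact, they served as littermate controls for knockouts, and no treatment is given for either organ. Age, sex and animal of each library, the lobe of the liver and the part of the cerebellum are not given in the sources used here. Tissue was frozen whole, so each library pooled all cell types of its piece of organ. RNA was total RNA depleted of ribosomal RNA and sequenced in pairs from a stranded kit.

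The liver secretes most plasma proteins, makes urea, bile and glucose, and clears drugs, and most of these functions sit in the hepatocyte under a small set of transcription factors such as HNF4A and CEBPA. The cerebellum is dominated by granule cells, small glutamatergic neurons that excite the dendrites of Purkinje cells, the GABAergic output neurons of its cortex. Interneurons, Bergmann glia, other astrocytes, oligodendrocytes and microglia make up the rest, while both organs hold macrophages, endothelium and blood.

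The 4 liver libraries held 26992675 to 32251737 counts and the 4 cerebellum libraries 18365028 to 24728845. Abundant noncoding RNAs such as 7SL and 7SK took 17.5% to 31.0% of liver counts and 6.07% to 6.82% of cerebellum counts. Among the remaining counts, 290 to 317 genes made up 50% of a liver library and 1145 to 1179 genes made up 50% of a cerebellum library. The TMM factors were 0.618 to 0.704 in liver and 1.48 to 1.52 in cerebellum, and they lowered the cerebellum to liver log2 change of every gene by a median of 1.16 against plain library totals. Liver libraries 1 and 2 lay closer to each other than the other liver pairs did, and cerebellum libraries 1 and 2, and 3 and 4, did likewise. Genes at 5 CPM or more that differed over 2-fold within a pair numbered 15 for liver 1 and 2 and 54 to 108 for the other liver pairs, and 11, 6 and 32 to 37 for cerebellum 1 and 2, 3 and 4, and the other pairs. Each pair still differed by more than sampling noise, though separate libraries of the same animal could do so too. Every library was kept as a replicate. The study calls its RNA-seq replicates biological, but the animal of each library is not given, so the p-values measure the spread between these libraries, whatever near-alike libraries share. The 8 hepatocyte markers summed to 78307 to 89502 CPM in liver, and the 5 neuron markers to 2428 to 2506 CPM in cerebellum against 13.2 to 14.8 CPM in liver. In cerebellum the hepatocyte markers summed to 630.3, 652.6, 1.97 and 1.96 CPM in libraries 1 to 4, a split that rested on Ttr, transthyretin, which choroid plexus also makes.

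Promoters of genes that differed most are shown first, so that their base composition can be compared. Alb, serum albumin, and Fga, a chain of fibrinogen, were among the 12 leading genes of the liver side, and Sphkap, an anchoring protein of protein kinase A, and Zic1, a zinc finger transcription factor, were among the 12 leading genes of the cerebellum side. The windows run 5′ to 3′ from 250 bases before to 50 bases after the RefSeq start, build GRCm38.p6, at chr5:90460620-90460919 on the forward strand for Alb, chr3:83025903-83026202 on the forward strand for Fga, chr1:83408151-83408450 on the reverse strand for Sphkap and chr9:91365719-91366018 on the reverse strand for Zic1. Capitals mark every CpG dinucleotide, the site of DNA methylation in mammals.
Alb: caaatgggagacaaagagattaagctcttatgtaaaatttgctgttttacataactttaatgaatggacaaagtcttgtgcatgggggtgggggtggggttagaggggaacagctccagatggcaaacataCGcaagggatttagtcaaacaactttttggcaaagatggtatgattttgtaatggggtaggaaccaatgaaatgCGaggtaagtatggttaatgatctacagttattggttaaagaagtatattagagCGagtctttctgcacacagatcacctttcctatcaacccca
Fga: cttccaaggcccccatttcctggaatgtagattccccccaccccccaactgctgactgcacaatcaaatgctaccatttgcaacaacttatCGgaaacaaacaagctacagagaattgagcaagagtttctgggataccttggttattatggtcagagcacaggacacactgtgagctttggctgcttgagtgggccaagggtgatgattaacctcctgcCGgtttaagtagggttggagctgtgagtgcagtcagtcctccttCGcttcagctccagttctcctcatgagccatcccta
Sphkap: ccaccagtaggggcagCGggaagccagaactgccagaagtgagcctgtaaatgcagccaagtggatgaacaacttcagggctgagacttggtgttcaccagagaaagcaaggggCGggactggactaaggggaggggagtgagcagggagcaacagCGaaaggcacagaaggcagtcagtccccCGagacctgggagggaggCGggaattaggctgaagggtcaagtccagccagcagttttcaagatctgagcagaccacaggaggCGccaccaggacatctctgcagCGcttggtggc
Zic1: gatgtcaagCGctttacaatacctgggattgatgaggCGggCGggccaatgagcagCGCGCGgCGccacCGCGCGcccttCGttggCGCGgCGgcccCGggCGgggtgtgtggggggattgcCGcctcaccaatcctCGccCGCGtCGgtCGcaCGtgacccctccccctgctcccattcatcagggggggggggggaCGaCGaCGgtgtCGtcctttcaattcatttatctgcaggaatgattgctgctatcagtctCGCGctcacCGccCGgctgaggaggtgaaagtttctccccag
The Alb and Fga windows held 3 CpG dinucleotides each, at a GC content of 40.0% and 50%, the Sphkap window held 7 at 59%, and the Zic1 window held 31 at 65.3%. Of the 12 leading genes, 10 on the liver side and 7 on the cerebellum side had a window whose RefSeq start lay within 1000 bases of the start of the gene model. The liver windows held 0 to 9 CpG dinucleotides and the cerebellum windows 7 to 41, so the sides overlapped at Sphkap and Unc80. Such a window was found for 74.3% of the protein-coding genes tested on the chromosomes covered, under the 80% needed, so a check over all genes of a side was void.

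Most genes differed between the organs. Of the 16478 genes, 8230 were higher in cerebellum (49.9%) and 7015 were higher in liver (42.6%) at a Benjamini-Hochberg adjusted p under 0.05 by limma-voom, together 92.5% of genes tested. A stricter test against a 2-fold change left 5626 genes higher in cerebellum (34.1%) and 4527 higher in liver (27.5%). The 4 cerebellum values lay wholly above the 4 liver values for 8011 genes (48.6%) and wholly below them for 6836 (41.5%). The median log2 change over all genes, coded as cerebellum minus liver, was 0.23. Every list below is to be read beside that median and the shares of all genes above. With library totals in place of TMM factors, 74.8% of calls were higher in cerebellum instead of 54.0%. In whole tissue, fewer cells of a type and less RNA per cell cannot be told apart. A gene on the opposite strand overlaps 29.0% of the genes tested, and their levels are uncertain because the strand setting of the counting is not given in the sources used here. Among the genes named here these include Ahsg, Serpina1c, Pzp, Abcb11, Cebpa, Oxct1, Zic1, Rora, Itpr1, Slc1a2, Pclo, Cacna1a, Csf1r, Atf5, Igf2, Malat1, Meg3 and Gapdh. Others are Alas2, Eng, Esrp2, Cx3cr1, Abcb1a, Cpt1c, Acsl1 and Acsl6, and the list is not complete.

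Beyond the calls, the sizes were uneven. Genes that differed by 256-fold or more numbered 923 on the cerebellum side and 569 on the liver side, and those at 1024-fold or more numbered 406 and 374. Both are numbers of fitted changes, which depend on the offset voom adds where an organ has no or few counts. At least 1 CPM in all 8 libraries was reached by 10981 genes. At least 1 CPM in all 4 cerebellum libraries with no count in any liver library was seen for 871 genes, and the reverse for 292. At a level of 100 CPM the order turned, with 75 such genes in cerebellum and 103 in liver. A gene with no count in a tissue had a level below 3 counts, and these genes entered through the tissue where they were high. That floor is 0.132 to 0.180 CPM per liver library and 0.0821 to 0.108 CPM per cerebellum library. No count in liver thus allows a higher level than no count in cerebellum. With under 1 CPM in the other organ in place of no count, 2874 genes of cerebellum and 1399 of liver reached 1 CPM in all 4 libraries.

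**Figure D1:**
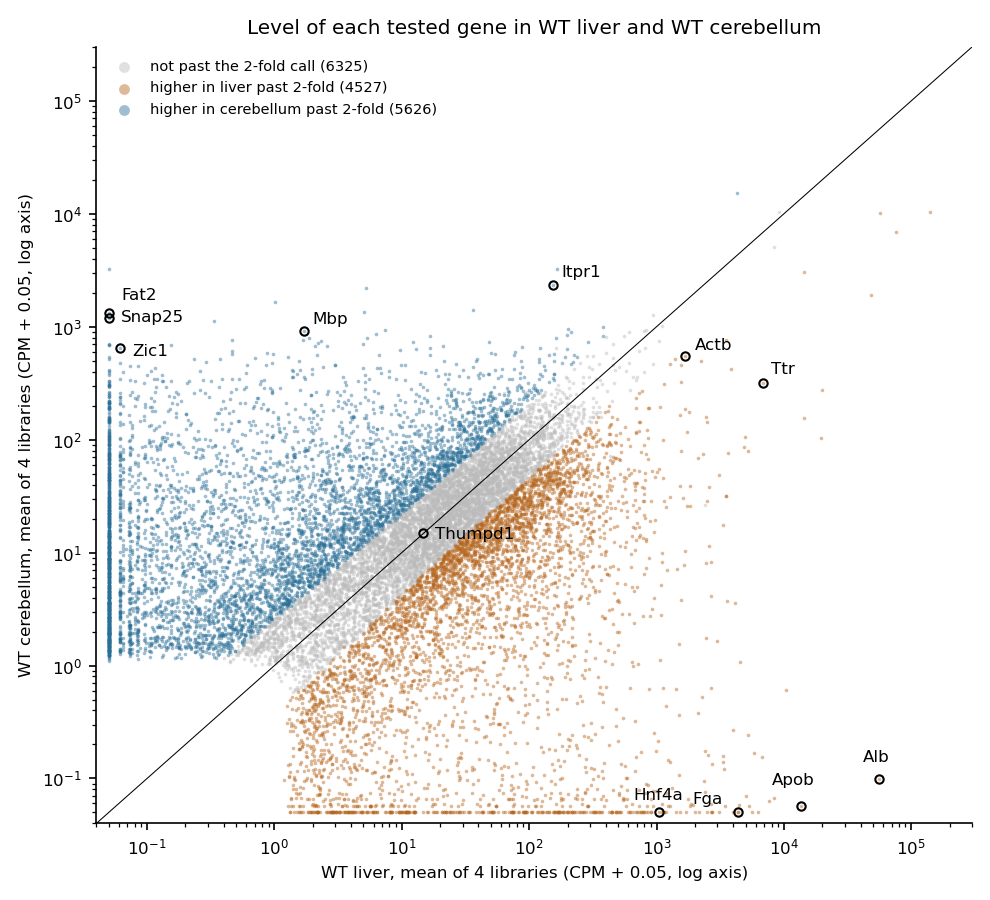
Mean CPM of each of the 16478 genes over 4 libraries in WT liver (horizontal) and WT cerebellum (vertical), both on log axes with 0.05 CPM added, with the genes past the 2-fold test in colour. The 5626 cerebellum-high and 4527 liver-high genes spread along both axes, where genes with no count in the other organ line up.

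The genes on the 2 sides differed in length. Protein-coding genes past the 2-fold test toward cerebellum had a median genomic span of 41.0 kb, those toward liver 17.5 kb, and those in neither group 25.5 kb. Spans over 100 kb made up 27.0%, 8.83% and 12.0% of the same sets. The median summed exon length was 5.53 kb, 3.41 kb and 4.83 kb. Read by length, 20.4% of 3205 genes under 10 kb were cerebellum-high and 41.7% liver-high, while 69.7% of 505 genes over 300 kb were cerebellum-high and 9.90% liver-high. Long noncoding RNA genes made up 23.9% of the cerebellum-high set and 6.03% of the liver-high set. They made up 8.40% of the genes in neither set and 13.1% of all genes tested. On chromosome X, 49.4% of 488 genes tested were cerebellum-high and 17.6% liver-high, beside 34.1% and 27.5% of all genes tested. These are descriptions of where the calls lie.

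The liver side was led by secreted proteins of the hepatocyte. Alb stood at 58961, 57875, 57698 and 50724 CPM in liver libraries 1 to 4 and at 0.0583, 0, 0.0717 and 0.0677 CPM in cerebellum. Only 6 counts of Alb were found in all 4 cerebellum libraries, and the ratio of the pooled counts, each over its pooled library sizes, was 1212030-fold with a counting interval of 556851 to 3302690. Ahsg, fetuin-A, a carrier of calcium phosphate, stood at 5533, 5617, 6128 and 5290 CPM in liver and had no count in cerebellum, at least 242069-fold lower. Gc, the vitamin D binding protein, stood at 4146, 4112, 4138 and 3707 CPM and likewise had no count in cerebellum, at least 173046-fold lower. Floors and intervals cover counting error only and say nothing of variation between animals. All 21 plasma carrier and inhibitor genes were higher in liver past the 2-fold test, with a median log2 change of -14.70. Trf, transferrin, which oligodendrocytes also make, kept a cerebellum level of 146 to 163 CPM against 13703 to 15071 CPM in liver, a log2 change of -6.54 ± 0.05 (SE, adjusted p = 7.04e-14).

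Ttr, the carrier of thyroxine and retinol binding protein, depended on the cerebellum library. It stood at 629, 651, 0.717 and 0.541 CPM in cerebellum libraries 1 to 4 and at 5932 to 7352 CPM in liver. Its log2 change was -8.03 ± 1.74 (adjusted p = 0.00119) over all 8 libraries, -3.51 with libraries 1 and 2 of each tissue and -13.26 with libraries 3 and 4. The tissues did not overlap in either subset.

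Coagulation, complement and lipoprotein genes followed the same order. Of 24 coagulation factors and inhibitors, 21 were higher in liver and 3 in cerebellum, with a median log2 change of -12.78. Fga and Fgb, chains of fibrinogen, had no count in cerebellum and averaged 4389 ± 388 and 2705 ± 87.0 CPM in liver (SD, n = 4). F2, prothrombin, gave 2227 to 2521 CPM in liver and 0.0874 to 0.169 CPM in cerebellum. The 3 genes on the other side act at vessels and cell surfaces rather than as circulating zymogens. F3, tissue factor, stood at 17.3, 16.96, 14.95 and 16.1 CPM in cerebellum and 3.09, 3.09, 4.61 and 2.70 CPM in liver, a log2 change of 2.29 ± 0.15 (adjusted p = 6.13e-08). Plat, tissue plasminogen activator, stood at 24.9 to 27.6 CPM against 0.376 to 1.20 CPM. Thbd, thrombomodulin, differed least, at 8.29 to 9.22 CPM against 5.34 to 7.01 CPM, a log2 change of 0.55 ± 0.10 (adjusted p = 0.000356), and it was not called with quantile normalization, at 0.14 (adjusted p = 0.21).

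All 22 complement genes were higher in liver, with a median log2 change of -11.63. C3, the central component, averaged 10454 ± 600.4 CPM in liver and 0.552 ± 0.155 CPM in cerebellum. C4b, the mouse form of the component C4, kept a level in cerebellum, at 9.62, 9.24, 7.09 and 6.88 CPM against 2530 to 2783 CPM in liver. Of 14 apolipoproteins 13 were higher in liver, with a median of -13.57. Apob, the structural protein of very low density lipoprotein, gave 1 count in cerebellum against 1132650 in liver. Apoe, which astrocytes also secrete, kept 262 to 291 CPM in cerebellum against 18657 to 21520 CPM in liver, a log2 change of -6.18 ± 0.05. Apod, a lipocalin of glia, was the exception: it stood at 79.3, 78.2, 69.5 and 71.4 CPM in cerebellum and had no count in liver, at least 2051-fold lower.

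Metabolic lists of the hepatocyte were one-sided too. All 24 genes of the urea cycle and amino acid breakdown were higher in liver (median log2 change -11.73). Cps1, the entry enzyme of the urea cycle, averaged 4507 ± 178 CPM in liver and 1.03 ± 0.145 CPM in cerebellum, and Ass1 averaged 4122 ± 168 and 3.55 ± 0.570 CPM. All 19 xenobiotic genes were higher in liver (median -11.24). Cyp2e1, an ethanol-oxidising cytochrome P450, averaged 5258 ± 516 CPM in liver and 0.192 ± 0.0733 CPM in cerebellum. Cyp3a11 had no count in cerebellum, although Cyp3a genes are close copies and their shares of reads are uncertain. Of 14 genes of hepatic glucose and glycogen metabolism 13 were higher in liver (median -10.99), among them Pck1 and Fbp1 of gluconeogenesis, each with 1 count in cerebellum. The remaining gene was Ppargc1a, a coactivator of mitochondrial genes, at 40.7, 40.0, 40.7 and 39.9 CPM in cerebellum and 5.69, 6.09, 8.65 and 9.77 CPM in liver.

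Of 16 genes of bile acid synthesis and transport 15 were higher in liver (median -10.90). Cyp8b1, which makes cholic acid, and Abcb11, the canalicular bile salt pump, averaged 1153 ± 99.5 and 897.8 ± 32.5 CPM in liver with no count in cerebellum. The exception was Cyp46a1, the brain cholesterol 24-hydroxylase, at 14.9 to 16.4 CPM in cerebellum and 2.10 to 4.41 CPM in liver. Fatty acid oxidation and ketone body genes showed a smaller median, -4.63, with 17 of 18 higher in liver. Oxct1, which lets tissues use ketone bodies and which hepatocytes lack, lay the other way at 124 to 133 CPM in cerebellum and 2.48 to 4.00 CPM in liver, a log2 change of 5.28 ± 0.13 (adjusted p = 2.19e-11).

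Transcription factors of the hepatocyte were all higher in liver, 16 of 16, with a median of -11.01. Hnf4a stood at 1131, 1146, 959 and 915 CPM in liver and had no count in cerebellum, at least 44764-fold lower. Cebpa averaged 1085 ± 45.5 CPM in liver and 2.77 ± 0.354 CPM in cerebellum. Ppara, the fasting-responsive receptor for fatty acids, averaged 217 ± 4.54 and 1.46 ± 0.354 CPM. Xbp1, a factor of the unfolded protein response, was split within liver: libraries 1 and 2 gave 253 and 251 CPM, libraries 3 and 4 gave 179.6 and 166 CPM, and cerebellum gave 46.4 to 52.0 CPM.

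The cerebellum side was led by neuronal genes. Fat2, a giant protocadherin of granule cells, stood at 1258, 1290, 1393 and 1356 CPM in cerebellum and had no count in liver, at least 36049-fold lower. Snap25, a SNARE protein of vesicle fusion, gave 1209.9, 1154, 1172 and 1238 CPM and no count in liver. Zic1, whose CpG-rich promoter is printed above, gave 666, 665, 628 and 632 CPM against 1 count in all of liver. Of the 12 leading genes 11 had no count in liver at all. They included Kcnc1, a fast potassium channel, Cbln1, the synaptic organiser that granule cells secrete, Grm4, a presynaptic glutamate receptor, and Mir124a-1hg, the host transcript of a neuronal microRNA. Over these 12 genes the SD between cerebellum libraries ran from 3.38 CPM for Mir124a-1hg, at a mean of 518 CPM, to 61.3 CPM for Fat2, at a mean of 1324 CPM.

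Of 29 cerebellar transcription factors 27 passed the expression filter, 25 of them higher in cerebellum and 2 in liver (median log2 change 8.23). Atoh1 and Ptf1a, which act in the embryonic rhombic lip and ventricular zone, did not pass it. Etv1, an activity-dependent factor of granule cells, averaged 402 ± 11.8 CPM in cerebellum and 1.34 ± 0.271 CPM in liver. Rora, which Purkinje cells need to mature, was shared more evenly at 372 to 401 CPM against 106 to 145 CPM, a log2 change of 1.69 ± 0.08 (adjusted p = 3.88e-09). Nfix and Nfib, nuclear factor I genes active in many tissues, differed by log2 0.30 ± 0.07 and 0.24 ± 0.04, which were 1.18 and 0.93 with quantile normalization and 1.46 and 1.404 with library totals. Meis2 was the larger exception, at 10.5 to 14.2 CPM in liver and 1.79 to 3.20 CPM in cerebellum. Foxp4 was higher in liver by a log2 change of -0.27 ± 0.05, but with library totals its change was 0.89 toward cerebellum.

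Markers of the cerebellar cell types lay on the cerebellum side with few exceptions. All 14 granule cell markers were higher in cerebellum (median log2 change 11.52), 16 of 17 Purkinje cell markers (8.46), all 10 of interneurons and Golgi cells (9.59), all 15 of astrocytes and Bergmann glia (5.03) and 16 of 17 of oligodendrocytes (7.81). Several markers were well expressed in liver all the same, which lowered their change. Itpr1, the inositol trisphosphate receptor of Purkinje cells, stood at 2289 to 2411 CPM in cerebellum and 149 to 159 CPM in liver, a log2 change of 3.93 ± 0.04. Car8, which binds that receptor, stood at 629 to 694 CPM against 73.8 to 102 CPM. Reln, the extracellular signal of granule cells, stood at 538 to 548 CPM against 177 to 211 CPM, and hepatic stellate cells make it too. Slc1a2, the astrocytic glutamate transporter, stood at 871 to 909 CPM against 190.0 to 238 CPM in liver.

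Other markers of these cells were near or at 0 in liver. Calb1, the calcium buffer of Purkinje cells, gave 380 to 410.2 CPM in cerebellum and 1 count in liver. Gad1, which makes GABA, averaged 250 ± 2.94 CPM in cerebellum with no count in liver. Slc1a3, the glutamate transporter of Bergmann glia, averaged 575 ± 8.09 CPM against 0.415 ± 0.148 CPM. Plcb3, the only Purkinje marker not called, gave a log2 change of 0.10.

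Myelin genes were high in cerebellum and varied between its libraries. Mbp stood at 987, 1053, 834 and 819 CPM in cerebellum and 1.54 to 1.80 CPM in liver, a log2 change of 9.09 ± 0.33 (adjusted p = 4.63e-10). Mobp stood at 203, 201, 173 and 176 CPM in cerebellum, with no count in liver. For both genes cerebellum libraries 1 and 2 lay above 3 and 4. Olig1, a transcription factor of the lineage, was called higher in liver, at 28.6 to 40.2 CPM against 16.9 to 22.2 CPM, and with library totals its log2 change was 0.38 toward cerebellum. Gm15966 overlaps Olig1 on the opposite strand.

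**Figure D2:**
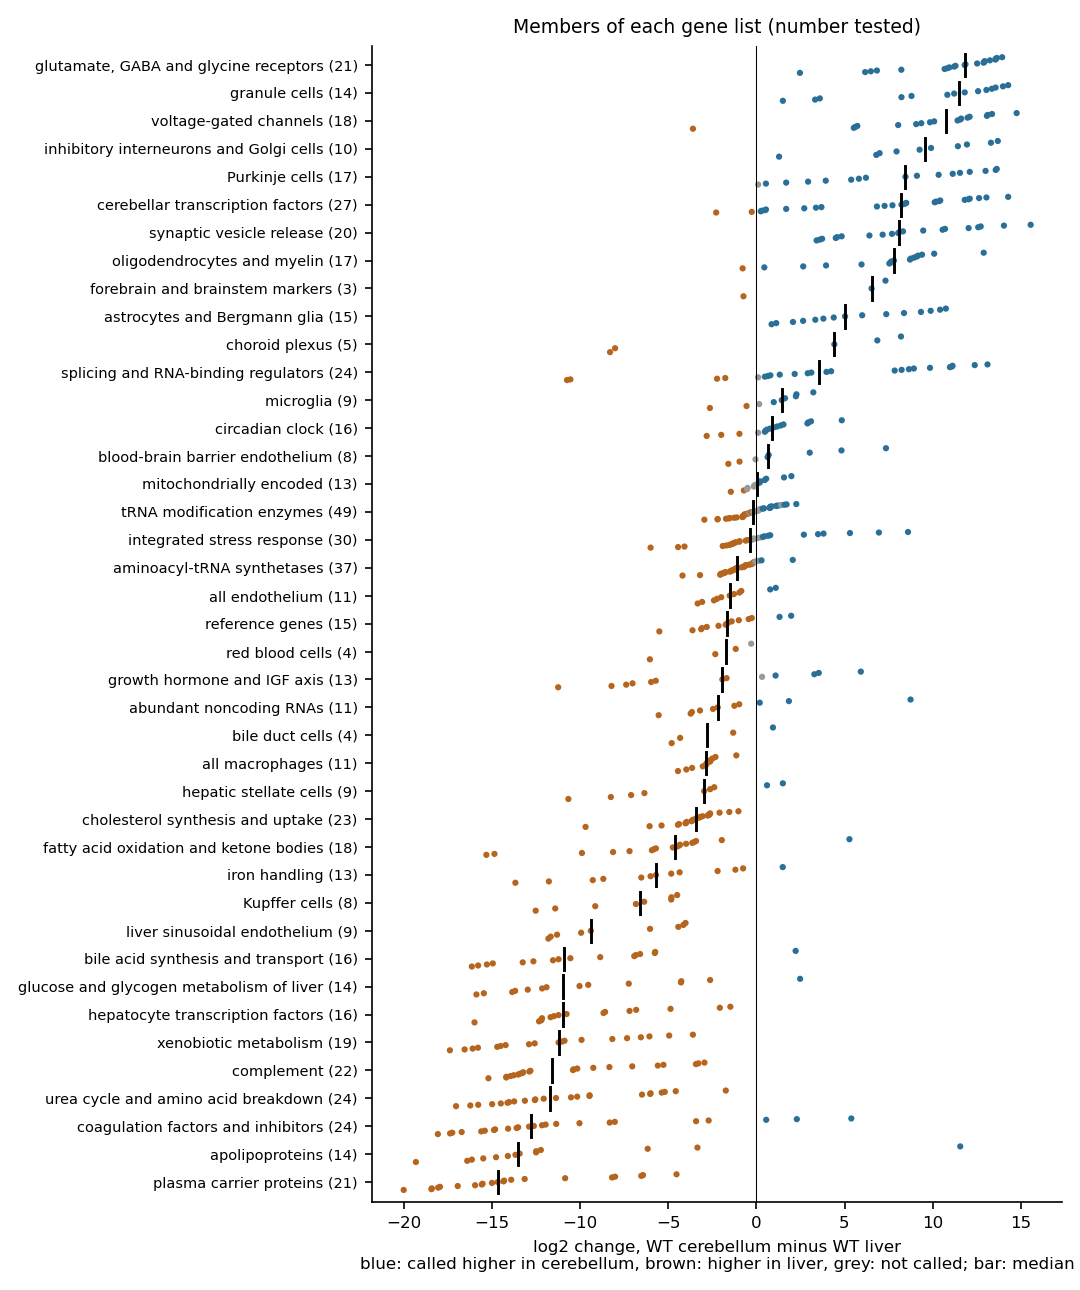
Log2 change (cerebellum minus liver) of each gene tested in the gene lists, 1 point per gene and a bar at each list's median. Hepatocyte lists lie between medians of -14.70 and -4.63, the synaptic, receptor and channel lists between 8.08 and 11.82, and tRNA modification enzymes at -0.19, beside 0.23 for all genes tested.

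Genes of neurotransmission were higher in cerebellum with few exceptions. All 20 genes of synaptic vesicle release that were tested were higher in cerebellum past the 2-fold test, with a median log2 change of 8.08. Bsn and Pclo, scaffolds of the presynaptic active zone, averaged 694 ± 22.1 and 868 ± 42.6 CPM in cerebellum and 0.103 ± 0.0681 and 6.18 ± 1.27 CPM in liver. All 21 glutamate, GABA and glycine receptor genes tested were higher in cerebellum (median 11.82), and 12 of them had no count in liver. Gria2, the AMPA receptor subunit that limits calcium entry, averaged 316 ± 12.9 CPM in cerebellum with no count in liver. Grin1, the obligate NMDA receptor subunit, averaged 338 ± 11.4 CPM against 2 counts in liver. Of 18 voltage-gated channel genes 17 were higher in cerebellum (median 10.75), including Cacna1a, the P/Q-type calcium channel, at 549.9 to 584 CPM against 1.85 to 2.30 CPM. Kcnq1, a potassium channel of epithelia, was the exception at 3.75 to 4.98 CPM in liver and 0.251 to 0.524 CPM in cerebellum, and the antisense transcript Kcnq1ot1 overlaps it.

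Markers of cell types that both organs hold were compared by the form resident in each. Of 9 microglia markers tested 6 were higher in cerebellum and 2 in liver, beside 49.9% and 42.6% of all genes tested. Their median log2 change was 1.43. Cx3cr1, the fractalkine receptor, stood at 6.24 to 6.76 CPM in cerebellum and 0.562 to 0.881 CPM in liver. Sall1, which defines microglia among macrophages but is expressed in other cells too, lay the other way at 31.4 to 37.3 CPM in liver and 4.66 to 6.87 CPM in cerebellum. P2ry13 was called higher in liver with a log2 change of -0.56 ± 0.19 (adjusted p = 0.0159), and with library totals its change was 0.60 toward cerebellum. The direction of the microglia list was not stable: its median was -0.092 with quantile normalization. All 8 Kupffer cell markers tested were higher in liver (median -6.61), led by Clec4f, a lectin of these cells, at 89.1 to 96.6 CPM with no count in cerebellum. All 11 markers common to macrophages were higher in liver (median -2.84), among them Csf1r at 72.5 to 92.8 CPM against 13.3 to 17.2 CPM.

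Endothelial genes differed by list. All 9 markers of liver sinusoidal endothelium were higher in liver (median -9.40), and Stab2, a scavenger receptor, gave 136 to 159 CPM against 0.0874 to 0.179 CPM. Of 11 general endothelial markers 9 were higher in liver (median -1.52), for example Eng at 102 to 115 CPM against 9.41 to 11.2 CPM. Flt1, a receptor for vascular endothelial growth factor, was higher in cerebellum at 53.9, 56.4, 54.8 and 56.8 CPM against 25.5, 26.1, 25.7 and 26.6 CPM. Emcn, the other exception, gave 2.44 to 3.58 CPM against 1.60 to 1.85 CPM, and its change was -0.29 with quantile normalization. Of 8 blood-brain barrier genes 5 were higher in cerebellum, 2 in liver and 1 was not called (median 0.66, beside 0.23 and 49.9% of genes higher in cerebellum over all genes). Slco1c1, a thyroxine transporter, gave 14.8 to 20.8 CPM against 0.0470 to 0.176 CPM, and Abcb1a, a drug pump, 18.7 to 20.2 CPM against 2.00 to 2.91 CPM. Bsg and Mfsd2a lay on the liver side, Bsg with a log2 change of -0.96 that became 0.20 with library totals.

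Stellate, bile duct and blood markers were fewer. Of 9 hepatic stellate cell genes 7 were higher in liver (median -2.97), including Colec10 at 21.9 to 29.4 CPM with no count in cerebellum, while Reln and Hhip were higher in cerebellum. Hhip, at 5.64 to 7.43 CPM in cerebellum and 3.43 to 6.12 CPM in liver, overlapped between the organs and had a log2 change of -0.0049 with quantile normalization. Of 4 bile duct genes tested 3 were higher in liver. Sox9, which astrocytes also express, was higher in cerebellum, at 34.0 to 35.9 CPM against 16.8 to 20.2 CPM. Of 4 red cell genes tested 3 were higher in liver. Alas2, the erythroid enzyme of haem synthesis, stood at 162 to 223 CPM in liver and 2.68 to 3.06 CPM in cerebellum, while Hbb-bs, a beta globin whose copies share reads, stood at 2.24 to 11.1 CPM and 0.772 to 1.25 CPM. The study names a Ribo-Zero Plus kit, and whether it also removed globin RNA is not given in the sources used here. The Hbb-bs level is thus no measure of the blood in a tissue. Of 11 markers of forebrain and brainstem 8 did not pass the filter, 2 were higher in cerebellum and 1 was higher in liver. Th and Neurod6, both with no count in liver, reached 3.30 to 4.68 CPM and 2.00 to 2.45 CPM in cerebellum.

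Choroid plexus genes split the cerebellum libraries. Clic6 stood at 19.6, 19.0, 4.05 and 4.87 CPM in cerebellum libraries 1 to 4, Slc4a5 at 10.9, 10.8, 1.08 and 1.35 CPM and Otx2 at 8.71, 10.1, 5.56 and 5.01 CPM. Libraries 1 and 2 were higher for each of them, as for Ttr. Aqp1, a water channel of choroid plexus and of other epithelia and vessels, stood at 3.76, 4.57, 0.0717 and 0 CPM in cerebellum and 123 to 153 CPM in liver. Igf2, a growth factor of choroid plexus and meninges, was higher in cerebellum libraries 1 and 2 (79.3 and 81.9 CPM) than in 3 and 4 (48.1 and 49.2 CPM), and liver gave 0.705 to 1.17 CPM. Igfbp2, which binds it, stood at 20.7, 23.3, 6.31 and 5.18 CPM in cerebellum and 513 to 765 CPM in liver. The summed choroid plexus list was 727, 749, 13.5 and 13.3 CPM in cerebellum, most of it Ttr in libraries 1 and 2 and most of it Clic6 and Otx2 in libraries 3 and 4, and 4 of its 9 markers, Kl, Folr1, Kcnj13 and Kcne2, did not pass the filter. The part of choroid plexus tissue in the cerebellum levels of Ttr, Igf2 and Igfbp2 was not tested.

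**Figure D3:**
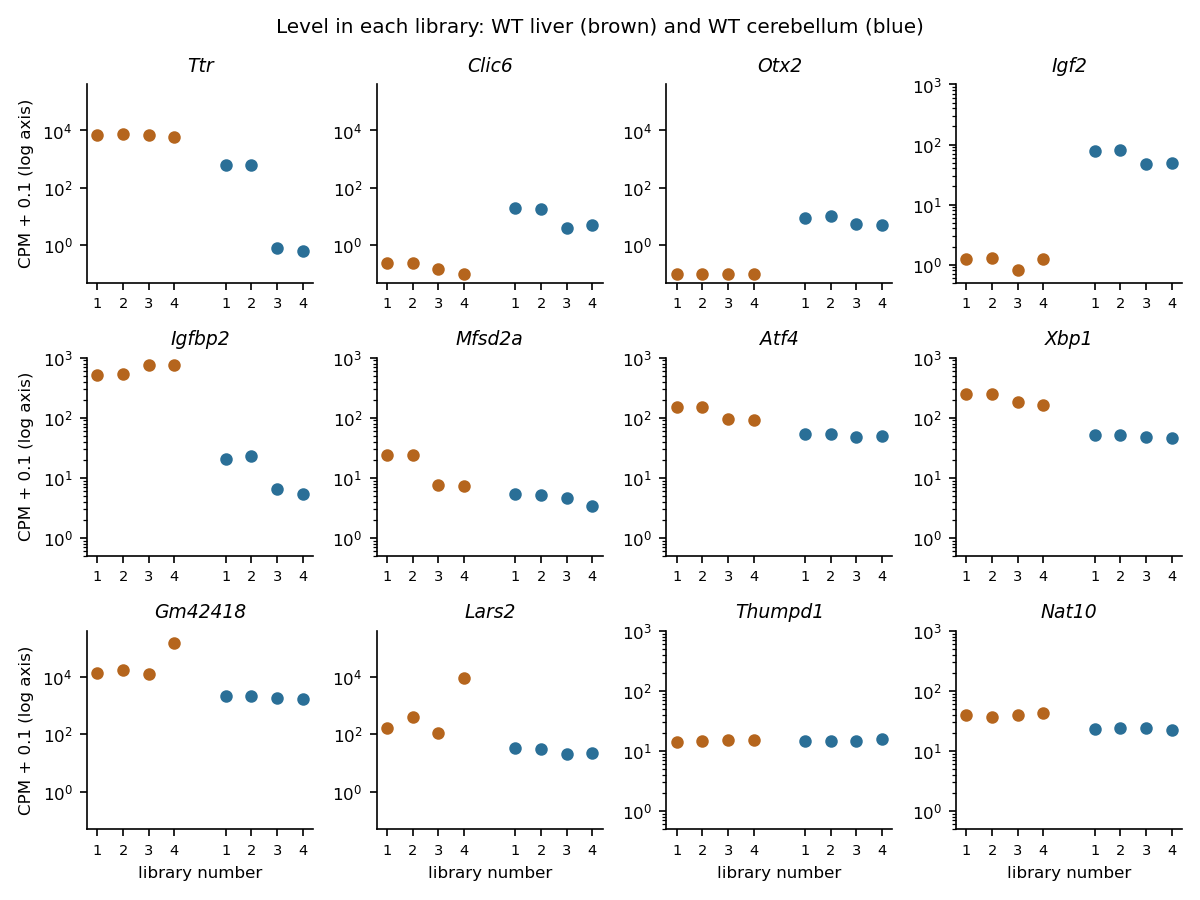
CPM, with 0.1 added and on log axes, of 10 genes that differed between libraries of the same organ and of Thumpd1 and Nat10, 1 point per library. Cerebellum libraries 1 and 2 lie above 3 and 4 for Ttr (629 and 651 against 0.717 and 0.541 CPM), and liver libraries 1 and 2 above 3 and 4 for Mfsd2a (23.7 and 23.7 against 7.43 and 7.25 CPM).

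Many enzymes exist as a form typical of liver and a form typical of brain, and 18 such pairs were compared as ratios within each library, which depend on the scaling between organs only through the 0.5 CPM added to each level. In all 18 pairs the 4 liver ratios lay above the 4 cerebellum ratios. The pairs were chosen as liver and brain forms with earlier results of these data known, so this is a description with no test. Compared per kilobase of exon, the liver form exceeded the brain form in liver and the brain form exceeded the liver form in cerebellum in 17 pairs. In 15 pairs each form was itself called, in opposite directions. Unlike the ratios, these calls depend on the scaling between organs. Pfkl, the liver form of phosphofructokinase, had a log2 change of -0.54 that was 0.63 toward cerebellum with library totals. Pyruvate kinase is an example from glycolysis. Pklr stood at 349 to 378 CPM in liver with 2 counts in cerebellum, and Pkm, also a pyruvate kinase gene, at 24.7 to 29.1 CPM in liver and 437 to 502 CPM in cerebellum. The log2 ratio of Pklr to Pkm was 3.75 ± 0.0983 in liver and -9.82 ± 0.104 in cerebellum (SD, n = 4, 0.5 CPM added).

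Glucose transporters showed the same switch, Slc2a2 at 269 to 297 CPM in liver with 8 counts in cerebellum, and Slc2a3, the neuronal transporter, at 73.9 to 79.0 CPM in cerebellum and 0.328 to 1.08 CPM in liver. Glycogen genes were similar. Gys2 gave 123 to 129.9 CPM in liver and no count in cerebellum, where Gys1 was at 11.4 to 13.2 CPM. Pygl averaged 618 ± 31.7 CPM in liver and Pygb 72.0 ± 3.26 CPM in cerebellum. The pairs Ldha and Ldhb, Eno1 and Eno2, Cpt1a and Cpt1c, and Acsl1 and Acsl6 were asymmetric: the brain form was nearly absent from liver, whereas the liver form kept a level in cerebellum. Eno1, for example, stood at 255 to 284 CPM in cerebellum beside Eno2 at 354 to 388 CPM, a per-kilobase level of 50.01 against 78.9.

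Methionine, translation and splicing pairs were compared too. Mat1a, the hepatic S-adenosylmethionine synthetase, averaged 2403 ± 66.2 CPM in liver with 3 counts in cerebellum. Eef1a2, the elongation factor form of neurons and muscle, stood at 449 to 496 CPM in cerebellum with 1 count in liver, and Eef1a1 at 3222 to 4142 CPM in liver and 395 to 453 CPM in cerebellum. The splicing repressors Ptbp1 and Ptbp2, which replace each other as neurons mature, stood at 116 to 139 and 7.78 to 13.1 CPM in liver and at 24.7 to 28.8 and 76.0 to 87.3 CPM in cerebellum.

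**Figure D4:**
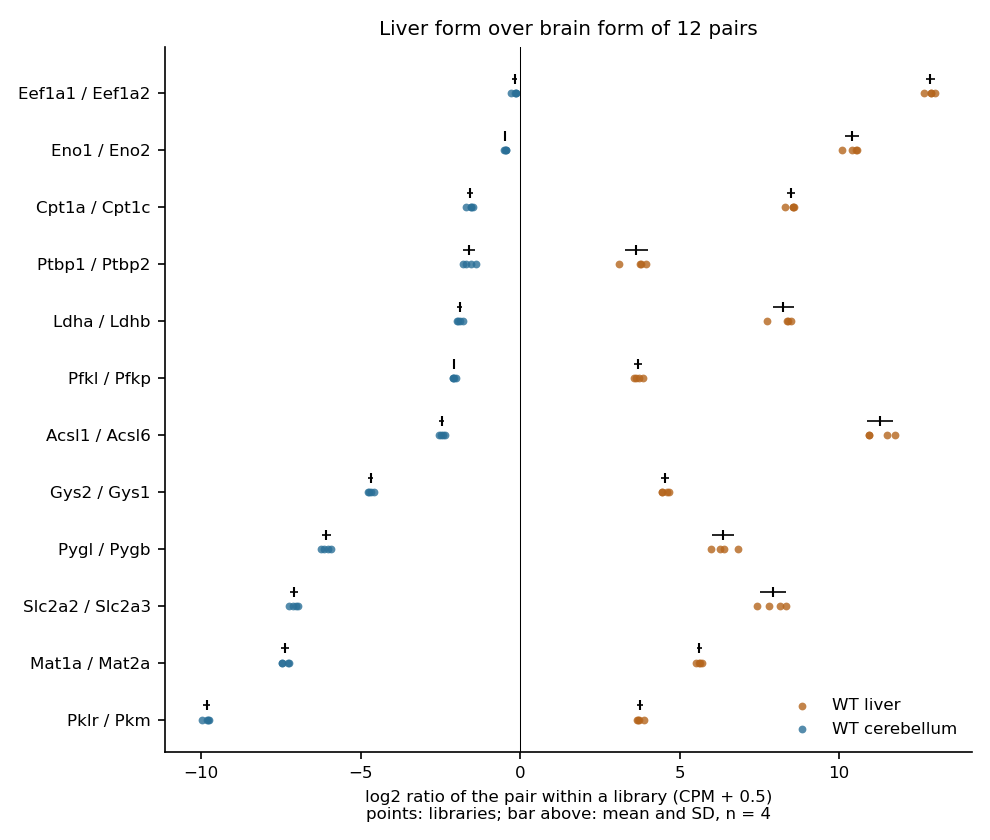
Log2 ratio of the liver form to the brain form for 12 of the 18 pairs, 1 point per library with 0.5 CPM added to each level, and the mean with SD above the points. The 4 liver points lie to the right of the 4 cerebellum points in all 12 pairs drawn, for example 3.75 against -9.82 on average for Pklr over Pkm.

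Regulators of splicing, Ptbp1 and Ptbp2 among them, were mostly higher in cerebellum, 19 of 24, with 4 higher in liver and a median log2 change of 3.55. Elavl3, a neuronal RNA-binding protein, averaged 218 ± 5.64 CPM in cerebellum with no count in liver, and Rbfox3, the antigen known as NeuN, averaged 287 ± 9.74 CPM against 0.771 ± 0.370 CPM. Esrp2, an epithelial splicing factor, and A1cf, the partner of Apobec1 in editing the Apob transcript, were the largest on the other side, at 180.2 to 208 and 216 to 266 CPM in liver with 17 counts each in cerebellum. Ptbp1 and Khdrbs3 were the remaining genes higher in liver.

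Genes of tRNA biology, to which the deleted gene of the line belongs, lay on both sides. Thumpd1, the adaptor for cytidine acetylation of tRNA, stood at 13.8, 14.4, 15.3 and 14.9 CPM in liver and 14.7, 14.7, 14.6 and 15.9 CPM in cerebellum. The organs overlapped, and its log2 change was 0.04 ± 0.07 (adjusted p = 0.58), which was -0.018 with quantile normalization and, called toward cerebellum, 1.20 with library totals (adjusted p = 2.31e-08). Nat10, the acetyltransferase it guides, stood at 39.7, 36.6, 40.4 and 42.4 CPM in liver and 22.8, 23.6, 24.3 and 22.6 CPM in cerebellum. Its log2 change was -0.77 ± 0.06 (adjusted p = 2.08e-07), but 0.39 toward cerebellum with library totals. Of 49 tRNA modification enzymes 22 were higher in liver, 14 in cerebellum and 13 were not called. The shares of all genes tested were 42.6% higher in liver and 49.9% in cerebellum. The median of these enzymes, -0.19, was 0.98 with library totals. Dus1l, a dihydrouridine synthase, was higher in liver at 100.1 to 115 CPM against 12.6 to 15.1 CPM, and Nsun2, a cytosine methyltransferase, at 79.5 to 91.1 CPM against 28.2 to 29.4 CPM. Alkbh8, which modifies wobble uridines, was higher in cerebellum at 33.5 to 37.9 CPM against 10.6 to 14.5 CPM.

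Aminoacyl-tRNA synthetases were mostly higher in liver, 31 of 37, with 2 higher in cerebellum and 4 not called. Their median log2 change was -1.09, which was 0.076 with library totals. Tars, the cytosolic threonyl enzyme, gave 132 to 146 CPM in liver and 13.7 to 16.1 CPM in cerebellum. Mars2, the mitochondrial methionyl enzyme, was the larger exception at 24.2 to 28.3 CPM in cerebellum and 4.98 to 7.29 CPM in liver, and Wars was the other, with a log2 change of 0.29 ± 0.06. Lars2, the mitochondrial leucyl enzyme, differed in size with a single library: liver gave 171, 399, 109.8 and 8947 CPM and cerebellum 20.3 to 33.4 CPM. Its log2 change was -4.20 ± 1.496 (adjusted p = 0.0208), and -2.88 without liver replicate 4 (adjusted p = 8.87e-05), and the other 3 liver libraries also lay above all of cerebellum. The call was lost with libraries 3 and 4 of each organ alone (-5.40, adjusted p = 0.22) and with no filter (-3.96, adjusted p = 0.20). The noncoding Gm42418 was highest in the same library, at 151041 CPM against 12598 to 16789 CPM in the other liver libraries, and its part in the Lars2 value was not tested.

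The integrated stress response, through which uncharged or damaged tRNA lowers translation, was mixed. Of 30 genes 16 were higher in liver and 10 in cerebellum, beside 42.6% and 49.9% of all genes tested. Their median of -0.38 was 0.79 with library totals. Atf5, which hepatocytes express strongly, stood at 651 to 707 CPM in liver and 9.78 to 11.2 CPM in cerebellum. Atf4, its upstream factor, stood at 151, 152, 94.3 and 91.1 CPM in liver libraries 1 to 4 and 47.5 to 53.5 CPM in cerebellum. Its log2 change of -1.23 was -0.063 with library totals, which ended the call (adjusted p = 0.77). Liver libraries 1 and 2 again lay above 3 and 4. Slc7a11, the cystine importer and an ATF4 target, lay the other way at 29.8 to 31.1 CPM in cerebellum with 6 counts in liver. Ppp1r15b, which restores translation, gave 176 to 210.1 CPM in liver and 49.7 to 52.8 CPM in cerebellum.

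Most cholesterol, iron and growth hormone axis genes were higher in liver. All 23 genes of cholesterol synthesis and uptake were higher in liver (median -3.45), for example Insig1, a sterol-regulated brake on cholesterol synthesis, at 538 to 599.9 CPM against 33.7 to 38.7 CPM and Sc5d, a sterol desaturase, at 520.3 to 598 CPM against 41.5 to 46.0 CPM. Of 13 iron genes 12 were higher in liver (median -5.70), and Tfrc, the receptor that imports transferrin, was higher in cerebellum at 49.5 to 53.3 CPM against 12.0 to 24.2 CPM. Of 13 genes of the growth hormone and IGF axis 8 were higher in liver, 4 in cerebellum and 1 was not called (median -1.94). Among all genes tested 42.6% were higher in liver and 49.9% in cerebellum. Igf1, which liver secretes, stood at 452, 455, 356 and 373 CPM in liver and 6.07 to 7.34 CPM in cerebellum, while Igf2, with values above, was 1 of the 4 that lay the other way.

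Of 16 clock genes 12 were higher in cerebellum and 3 in liver, beside 49.9% and 42.6% of all genes tested. Their median log2 change was 0.86, beside 0.23 over all genes. Nr1d2 and Tef, repressor and output of the clock, stood at 120.0 to 133 and 160.4 to 186 CPM in cerebellum and at 42.9 to 55.3 and 72.6 to 83.3 CPM in liver. Nfil3, which opposes Tef, was higher in liver at 42.6 to 70.1 CPM against 8.04 to 8.68 CPM. Nr1d1 was higher in liver by a log2 change of -0.97 ± 0.05, but 0.20 toward cerebellum with library totals. The hour of tissue collection is not given in the sources used here, so these are levels at unknown times of day.

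Genes often used as references were not level. Of 15 such genes 13 were higher in liver and 2 in cerebellum, with a median log2 change of -1.67. Actb stood at 1736, 1747, 1654 and 1525 CPM in liver and 558, 587, 525 and 533 CPM in cerebellum, a log2 change of -1.60 ± 0.05, which was 0.15 with quantile normalization. Gapdh gave -1.41 ± 0.10 and 0.17 in the same settings. Tbp and Ywhaz lay toward cerebellum, Tbp at 35.9 to 37.5 CPM against 8.29 to 9.87 CPM and Ywhaz at 373 to 394 CPM against 144 to 166 CPM. Polr2a and Hprt differed least, with log2 changes of -0.27 and -0.45, and both lay toward cerebellum with library totals, at 0.90 and 0.72, as did Polr2a with quantile normalization, at 0.15. Ppia, at -1.005, was 0.16 with library totals. B2m, which presents peptides with class I molecules, differed most at 837 to 985 CPM in liver and 17.5 to 21.1 CPM in cerebellum.

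**Figure D5:**
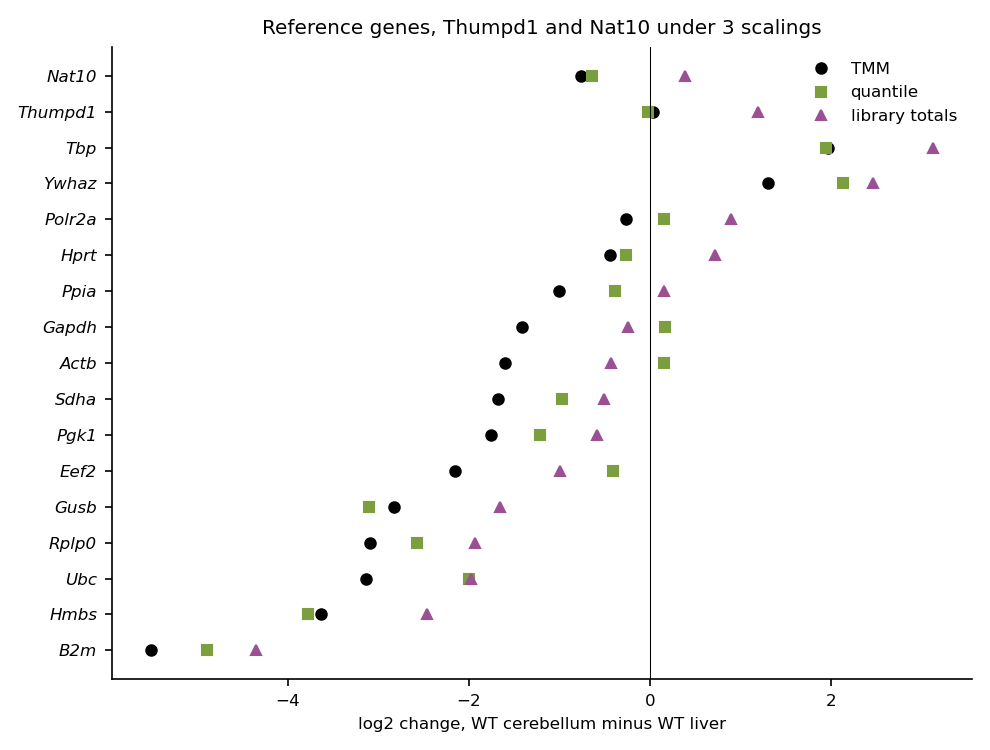
Log2 change (cerebellum minus liver) of 15 reference genes, Thumpd1 and Nat10 under TMM, library totals and quantile normalization. Actb moves from -1.60 to 0.15 with quantile normalization and Nat10 from -0.77 to 0.39 with library totals.

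Of the 13 genes encoded by mitochondrial DNA 6 were higher in cerebellum, 2 in liver and 5 were not called. Over all genes tested the shares were 49.9% higher in cerebellum and 42.6% in liver. The median of these 13 genes was 0.03, and -0.043 without liver replicate 3. mt-Co1 stood at 7125 to 9979 CPM in liver and 4776 to 5263 CPM in cerebellum, a log2 change of -0.71 ± 0.11 that was 0.45 with library totals and 1.42 with quantile normalization. mt-Nd1 lay toward cerebellum, at 828 to 977 CPM against 576 to 659 CPM. Nnt, which C57BL/6J mice carry as a deletion and C57BL/6N mice carry intact, is listed as 2 entries that may share reads. The entries averaged 86.7 ± 14.7 and 71.6 ± 26.0 CPM in liver and 7.69 ± 1.66 and 6.48 ± 1.60 CPM in cerebellum, and both were higher in liver.

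Long and abundant noncoding RNAs divided by organ. Malat1, a nuclear transcript, stood at 14528 to 16052 CPM in cerebellum and 3720 to 5266 CPM in liver, and Meg3, a maternally expressed transcript of neurons, at 2128 to 2309 CPM against 4.67 to 5.76 CPM. Rn7s1 and Rn7s2, entries for the 7SL RNA of the signal recognition particle, were higher in liver with wide spreads, at 25923 to 148064 and 104998 to 227841 CPM against 5309 to 8756 and 9021 to 11994 CPM. The liver libraries that were highest differed between the entries, replicate 4 for Rn7s1 and replicate 3 for Rn7s2. With quantile normalization the log2 change was -0.90 instead of -3.21 for Rn7s1, -0.73 instead of -3.67 for Rn7s2 and 4.58 instead of 1.84 for Malat1. Rn7sk, the 7SK RNA, had a log2 change of 0.19 ± 0.07 (adjusted p = 0.0197) that edgeR did not call (adjusted p = 0.10), and its size rested on the scaling, at 1.35 with library totals and 2.73 with quantile normalization.

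The spread between libraries was larger in liver. Over the 8184 genes at 5 CPM or more in both organs, the median SD of log2 CPM was 0.110 in liver and 0.0645 in cerebellum, and it was larger in liver for 6120 genes (74.8%). An SD over 0.5 was seen for 72 genes in liver and 24 in cerebellum. Several genes with values given here divided liver libraries 1 and 2 from 3 and 4: Atf4, Xbp1, Mfsd2a, Hnf4a and Igf1 were higher in 1 and 2, and Igfbp2 was lower in them, at 513 and 533 against 765 and 749 CPM. Mfsd2a, a lysolipid transporter of hepatocytes and brain endothelium, stood at 23.7, 23.7, 7.43 and 7.25 CPM in liver and 3.35 to 5.27 CPM in cerebellum. Its call toward liver, a log2 change of -1.60 ± 0.46 (adjusted p = 0.00711), was lost at nearly the same size when libraries 1 and 2, and 3 and 4, were summed within each organ (-1.59, adjusted p = 0.0677). With library totals the change was -0.40 (adjusted p = 0.44). The labels name no batch, feeding state or hour for these libraries.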

How the data were processed

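RNA from WT cerebellum and WT liver was sequenced after ribosomal RNA depletion with a stranded kit. The authors aligned reads to mm10 with the GENCODE M21 annotation by STAR and deposited RSEM expected counts, which need not be whole numbers (12.4% to 14.9% of the values above 0 were not whole). The strand setting and program versions are not given in the sources used here. All 24 columns of the table matched a sample, and 8 were used.

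Genes with at least 1 CPM on TMM-scaled library sizes in at least 4 of the 8 libraries were kept. Limma-voom (limma 3.58.1, edgeR 4.0.16, R 4.3.3) compared the organs with no covariate, with Benjamini-Hochberg adjustment over all genes kept and a threshold of 0.05. A second call used limma's treat against a log2 change of 1. Log2 changes are cerebellum minus liver. Paired forms were compared as within-library log2 ratios with 0.5 CPM added, as a description with no test. Against a tissue with no count, a fold is a lower bound set by a floor of 3 counts over its 4 libraries. With 1 to 20 counts, the ratio has a 95% exact counting interval. Fitted changes of such genes depend on the offset voom adds. The fits were tested on simulated counts in which few genes changed, so that test did not cover data where most genes differ, as here. CPM per kb uses the summed exon length of mm10 gene models.

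Genes were named by rule: Thumpd1, Nat10 and Nnt, the 12 largest changes on each side, all paired forms, up to 5 abundant members of each list and up to 3 called against it, all reference genes, and members of counts of 5 or fewer. Some genes that this rule names are not reported here. The comparison, the gene lists and the pairs were chosen with earlier results of these data known. Promoter windows came from RefSeq (GRCm38.p6), and 9990 of 13440 protein-coding genes on the chromosomes covered matched by symbol or synonym with a start within 1000 bases of the gene model's. Alternatives were quantile normalization, library totals, leaving out abundant noncoding RNAs, edgeR's quasi-likelihood test and DESeq2 1.42.0 on rounded counts, other filters, a replicate block, other pseudocounts and leaving out each library. Summing the near-alike libraries, and using 1 pair of them alone, were chosen after seeing the data. Knockout and testes libraries were not analysed here.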

Additional observations from a re-analysis of the deposited data

Results flagged for a closer look

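Of 292 groups of 4 libraries tested, 21 held a library whose gap to its nearest neighbour took up more of the group's range than Dixon's 95% critical value allows, and chance flags about 1 in 20 groups. In liver replicate 4 these were Gm42418 (151041 CPM, median of the others 13858), Lars2 (8947 CPM, 171), Alb (50724 CPM, 57875), Gc (3707 CPM, 4138), Serpina1a (3605 CPM, 4598), Ppia (291 CPM, 327) and an entry of Nnt (32.7 CPM, 85.2). The same library had the largest share of abundant noncoding RNAs, 31.0%. The other Nnt entry was 102 CPM in that library, and reads are shared between the 2 entries to an unknown extent.

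In liver replicate 3 they were Rn7s2 (227841 CPM, median of the others 107326), Fgb (2836 CPM, 2664), B2m (985 CPM, 845), Pygl (666 CPM, 602), Stab2 (159 CPM, 138) and Igf2 (0.705 CPM, 1.15), and in liver replicate 2 Tbp (8.29 CPM, 9.83). In cerebellum they were Sc5d (46.0 CPM, 41.7) in replicate 1, Etv1 (385 CPM, 409) and Foxp4 (49.1 CPM, 45.4) in replicate 2, Mat2a (80.8 CPM, 87.8) and Sdha (146 CPM, 156) in replicate 3, and Thumpd1 (15.9 CPM, 14.7) and an entry of Nnt (4.09 CPM, 7.25) in replicate 4. Genes whose libraries split 2 against 2, such as Ttr in cerebellum and Mfsd2a in liver, cannot meet this rule.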

How the results depend on the processing

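The counts of calls stayed within 1.5 times under quantile normalization, edgeR, DESeq2, no filter, the filter on unscaled CPM, leaving out abundant noncoding RNAs and the summed libraries. Requiring 1 CPM in all 8 libraries, which drops genes of a single organ, left 9957 calls, 4620 of them higher in cerebellum, and 5193 past 2-fold (2275 and 2918). With library totals, liver calls were 3962, and the 2-fold calls were 9139 toward cerebellum and 2508 toward liver. Without any filter 21271 genes were called, but limma-voom then lost 14 of the 181 named genes. Among them were Alb (log2 -20.03, adjusted p = 0.219), Apob (-19.41, 0.869), Apoe (-6.19, 0.933) and C3 (-14.23, 0.259), whose sizes hardly moved and which DESeq2 and edgeR called with the filter. Gm42418 was lost too, and its size moved from -3.74 to -6.23 (limma-voom adjusted p = 0.853). The cause was not tested. Leaving out each library gave 15154 to 15640 calls (8091 to 8539 and 6884 to 7121), 10054 to 10556 past 2-fold (5521 to 5893 and 4435 to 4663) and 18 of 18 pairs each time. Rn7sk lost its call without cerebellum replicate 2. Quantile normalization ended the calls of Emcn, Foxp4, Gm42418, Hhip, Slc4a5 and Thbd, and library totals those of Atf4, Gapdh, Mfsd2a, Ppia and mt-Co2, and Thumpd1 became called (1.20). Summing near-alike libraries ended the calls of Mfsd2a (-1.59), Nfix (0.29), P2ry13 (-0.59) and Rn7sk (0.17) at about the same size. Libraries 3 and 4 alone ended those of Hbb-bs, Hhip, Lars2 and Rn7sk, and libraries 1 and 2 alone that of P2ry13.

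Whether equal replicate numbers mark the same animal is not given in the sources used here. Same-numbered deviations correlated at -0.0126, 0.0942, 0.00936 and 0.0839 over 9901 genes. Differently numbered ones correlated at -0.139 to 0.0545, so these values do not settle whether the numbers pair the samples. The replicate block gave 15163 calls (8169 and 6994) and 10047 past 2-fold (5518 and 4529), and no named gene changed its call.

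Directions turned with scaling, filter or, for the mitochondrial median, 1 library. Medians became -0.092 (quantile) and -0.21 (all 8 libraries) for microglia, -0.74 for forebrain and brainstem (1 marker left) and -0.14 for all genes (all 8 libraries), 0.98 for tRNA modification, 0.076 for synthetases and 0.79 for the stress response (library totals), and 0.10 for abundant noncoding RNAs (quantile). The mitochondrial median ranged from -0.043 to 0.17 when each library was left out, below 0 without liver replicate 3 (-0.043), cerebellum replicate 2 (-0.011) or cerebellum replicate 4 (-0.039). With quantile normalization the log2 change became 0.15 for Actb, 0.17 for Gapdh, 0.15 for Polr2a, -0.29 for Emcn, -0.0049 for Hhip, -0.018 for Thumpd1 and 1.42 for mt-Co1. With library totals it became 0.20 for Bsg, 0.89 for Foxp4, 0.72 for Hprt, 0.39 for Nat10, 0.20 for Nr1d1, 0.38 for Olig1, 0.60 for P2ry13, 0.63 for Pfkl, 0.90 for Polr2a, 0.16 for Ppia and 0.45 for mt-Co1. The choroid plexus median had no value with the filter in all 8 libraries. At 3 counts, depth sets the lowest level told from 0 at 0.0821 to 0.180 CPM per library.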
